A study of Homo sapiens with 10 samples.

Results

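The transcripts described here are the 3 that come from the reporter system itself rather than from the genome of the cells. They were taken by name from the expression table as GLuc_Reporter, CLuc_Normalizer and EF_dCas9VP64, 3 of 19301 named features. GLuc_Reporter is the mRNA of Gaussia luciferase, and every guide RNA was aimed at the reporter locus that it comes from. CLuc_Normalizer is the mRNA of Cypridina luciferase, a reporter that the guides do not target. EF_dCas9VP64 encodes the activator. None of the 3 has a position in the human genome annotation, so no coordinates apply to them.

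Polyadenylated RNA was sequenced from HEK293FT cells (an established human embryonic kidney line that takes up plasmids easily) in which lentiviral Gaussia and Cypridina loci had been integrated. All cells carried both loci and all received 59 ng of plasmid for dCas9-VP64 in a transient transfection, 1 day after 125000 cells were plated in each well. Wells also received 679.4 ng of a carrier plasmid and 2.25 uL of Lipofectamine, a transfection reagent, and the labels name no plasmid in place of the guide plasmid in wells without one. RNA was taken 3 days later. The 5 groups of 2 libraries are the activator with no guide (CasVP) and the activator with 11.6 ng of a U6-driven plasmid for the guide labelled sgRNA, INT, TOP1 or P4P6. A transiently transfected plasmid does not reach every cell, and the values are averages over all cells of a well. In such averages, fewer transfected cells and less RNA per cell cannot be told apart. Nothing in the labels ties the 2 libraries of a group to separate cultures, so p-values measure only the spread between libraries, which may be technical. Libraries are named by the index 0 or 1 in the table's column names.

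In CRISPR activation, a catalytically inactive Cas9 binds the DNA that its guide RNA matches without cutting it. VP64, tandem copies of the activation domain of the herpesvirus protein VP16, then recruits general transcription factors and coactivators to a nearby promoter. CRISPR Display, named in the title of the series, extends the guide with additional RNA so that the complex carries that RNA to the locus, and the activation of a reporter then shows whether an extended guide still works with dCas9. P4-P6 is also the name of a compactly folded domain of the Tetrahymena group I intron. The labels do not spell out how INT, TOP1 and P4P6 differ from the guide labelled sgRNA, and the guide TOP1 is unrelated to the human gene of that symbol. Both luciferases are secreted enzymes that act on different substrates, which allows one to normalize the other in a light assay. Light readings were not analysed here.

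Deposited values were FPKM (fragments per kilobase of transcript, scaled to the fragments of a library), which allow levels of different transcripts to be compared per length. From the smallest steps among low values, the relative sequencing depth was estimated to lie between 0.694 in P4P6 replicate 0 and 1.02 in TOP1 replicate 0, with CasVP replicate 0 set to 1. Of 12 genes listed as typical of HEK293 cells, 11 had a mean of at least 1 FPKM (PAX2 was the exception), and their sum was 450 to 527 FPKM. The summed level of the fibroblast list was at most 3.48 FPKM, and those of the blood, hepatocyte and endothelial lists were at most 0.653 FPKM. The table also has a row for each guide. The INT row was listed at 1.38 FPKM in INT replicate 0, the TOP1 row at 0.331 and 0.441 in the TOP1 libraries, and the P4P6 row at 0.440 and 0.761 in the P4P6 libraries. The row of the guide sgRNA was listed at 233 FPKM in sgRNA replicate 0 and at 109 in P4P6 replicate 0. All guide rows were listed at 0 in every other library, the second INT and sgRNA libraries included. U6 transcripts are short and carry no poly(A) tail, so these rows are not read here as guide levels. Each guide row was above 0 in a library of its own label, and the 1 library with a value in the row of another guide was P4P6 replicate 0. Guide sequences were not available here, so whether the rows share sequence, and with it fragments, was not tested. The number of fragments behind these values is unknown. The main differences that involve the P4P6 group are given with and without P4P6 replicate 0.

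Gaussia mRNA, from the targeted locus, was already present without a guide, at 23.8 and 22.7 FPKM in the CasVP libraries. That was above 78.8 to 79.6% of named features in those libraries. With sgRNA it was listed at 787 and 857 FPKM, ranks 93 and 91 of all named features. INT libraries held 356 and 366 FPKM (ranks 166 and 157). TOP1 libraries held 257 and 273 FPKM (ranks 259 and 237). P4P6 libraries held 189 and 163 FPKM (ranks 325 and 385). The 5 groups formed 5 separate steps, with no library of one group inside the range of another. As a share of all FPKM in a library, the Gaussia transcript was 0.00417 and 0.00402% in CasVP and 0.132 and 0.146% with sgRNA. Groups that do not overlap are common among all features with 2 libraries each. Against CasVP, 46% of features had no overlap with sgRNA, 43.4% with INT, 48.2% with TOP1 and 51.6% with P4P6. Against sgRNA the shares were 43% with INT, 29.2% with TOP1 and 56.5% with P4P6. They were 46.6% between INT and TOP1, 36.2% between INT and P4P6 and 60% between TOP1 and P4P6.

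**Figure D1:**
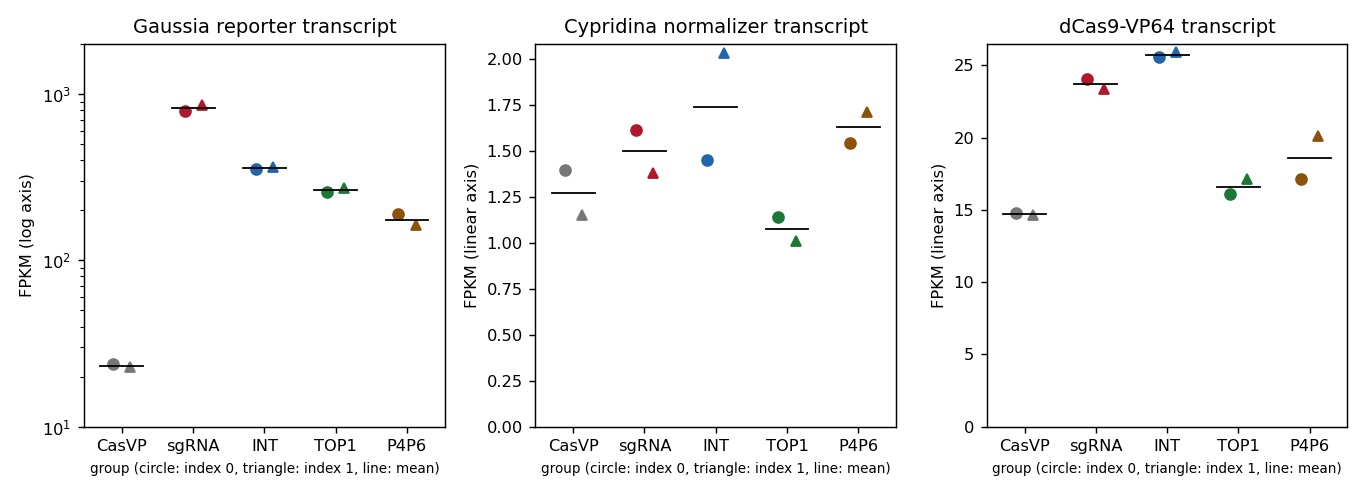
FPKM of the Gaussia reporter (log axis), the Cypridina normalizer and dCas9-VP64 (linear axes) in each of the 10 libraries, by group, with circles for index 0, triangles for index 1 and a line at the mean of 2 libraries. Gaussia falls into 5 separate steps from 22.7 to 857 FPKM, Cypridina lies between 1.01 and 2.03 FPKM, and dCas9-VP64 between 14.6 and 25.9 FPKM.

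The guides were tested against CasVP with limma on log2(FPKM + 1) over 11574 features. The Gaussia transcript rose with each of the 4 guides. INT gave 42.3% of the gain in FPKM that sgRNA gave over CasVP, TOP1 30.3% and P4P6 19.1%. The 95% confidence intervals of the rise in FPKM + 1 were 30.3- to 37.8-fold with sgRNA, 13.4- to 16.7-fold with INT, 9.81- to 12.2-fold with TOP1 and 6.50- to 8.10-fold with P4P6. These intervals do not overlap, but they share the same CasVP libraries and are not a test between guides. Of the 3 construct transcripts, 2 passed with sgRNA, 2 with INT, 1 with TOP1 and 1 with P4P6, all higher. The share of all tested features that rose was 0.0173% with sgRNA and with INT and 0.00864% with TOP1 and with P4P6, that is, only construct transcripts passed in these comparisons. Without P4P6 replicate 0, 764 features (6.60%) passed in P4P6 against CasVP. The rise with P4P6 was 2.86 on the log2 scale and 2.75 without P4P6 replicate 0 (limma adjusted p = 5.47e-08).

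Neighbouring steps of the order were then compared. From P4P6 to TOP1 the Gaussia transcript was 1.51 times as high in FPKM (log2 difference 0.59, SE 0.07, limma adjusted p = 0.0095, n = 2 each). In that comparison 20% of all features passed, so the Gaussia call is 1 of 2318. The call ended when only the libraries of these 2 groups were fitted (adjusted p = 0.0893), and held without P4P6 replicate 0 (log2 difference 0.70, adjusted p = 0.00487) and without P4P6 replicate 1 (0.49, adjusted p = 0.028). From TOP1 to INT it was 1.36 times as high, with an interval of 1.22 to 1.52 on FPKM + 1 (log2 difference 0.45, SE 0.07). That step did not pass (limma adjusted p = 0.275, unadjusted p = 9.17e-05). No feature passed between INT and TOP1 with limma (0% of those tested), with 1641 of 11574 at an unadjusted p under 0.05. All 3 construct transcripts were higher in both INT libraries than in both TOP1 libraries, where 46.6% of all features had no overlap in either direction. INT exceeded P4P6 by 2.06-fold (log2 difference 1.04, SE 0.07, adjusted p = 0.000487), and Gaussia was the only feature that passed between these 2 groups, 0.00864% of those tested. Without P4P6 replicate 0 that difference was 1.15 (adjusted p = 0.000178). Against sgRNA the transcript fell with INT, TOP1 and P4P6 (log2 differences -1.18, -1.63 and -2.22, and -2.33 for P4P6 without P4P6 replicate 0). The share of all features called in either direction was 0.00864% for INT and for TOP1 against sgRNA and 11.5% for P4P6 against sgRNA.

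**Figure D2:**
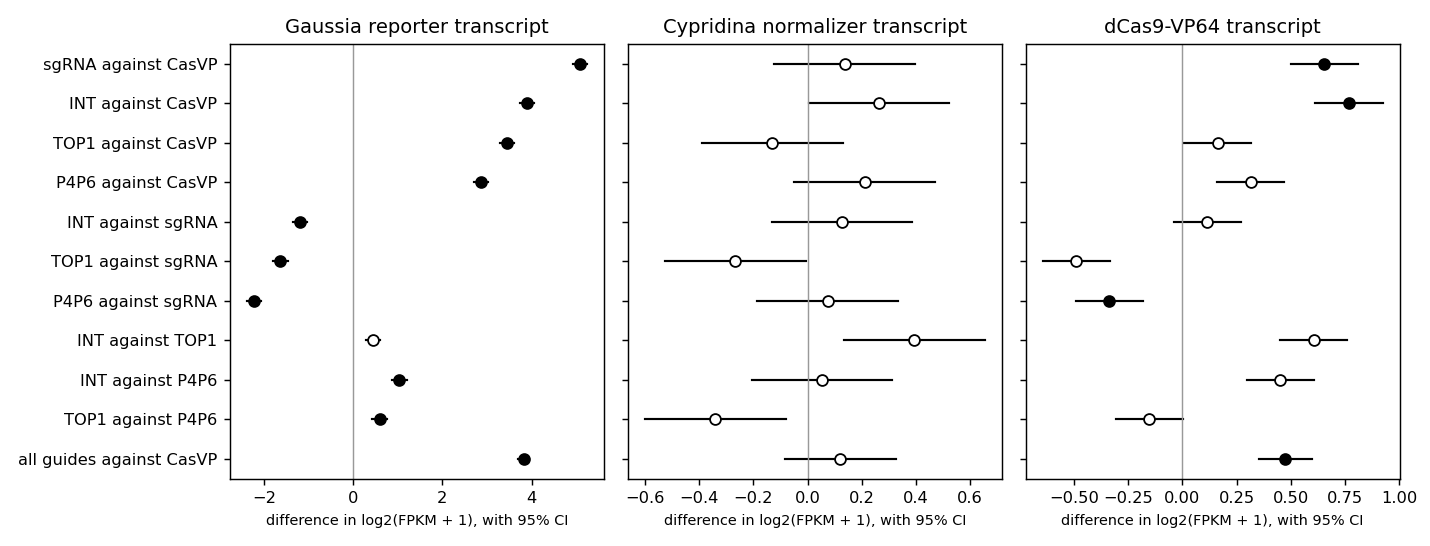
Difference in log2(FPKM + 1) for the 3 construct transcripts in 11 comparisons, with 95% confidence intervals from limma. Filled circles passed an adjusted p of 0.05 over 11574 features and open circles did not. Gaussia passed in 10 of the comparisons shown, and the exception was INT against TOP1.

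The Cypridina transcript, which no guide targets, was the lowest of the 3 in every library. It was at 1.40 and 1.15 FPKM in CasVP, 1.62 and 1.38 with sgRNA, 1.45 and 2.03 with INT, 1.14 and 1.01 with TOP1 and 1.54 and 1.71 with P4P6. Of the 8 guide libraries, 5 exceeded the higher CasVP value and 2, those of TOP1, were under the lower one. In order of means the groups ran INT, P4P6, sgRNA, CasVP and TOP1. It passed in none of the 11 comparisons with limma. The nearest to a call was TOP1 against P4P6 (log2 difference -0.34, SE 0.12, adjusted p = 0.064; -0.39 and 0.0787 without P4P6 replicate 0). That difference passed without INT replicate 0 or INT replicate 1, which lie outside the comparison and enter only through the shared spread (lowest adjusted p = 0.0435), and when every library was scaled to the same summed FPKM (-0.43, adjusted p = 0.0237). The 95% intervals of the difference from CasVP in FPKM + 1 were 0.918- to 1.32-fold with sgRNA, 1.00- to 1.44-fold with INT, 0.763- to 1.09-fold with TOP1 and 0.967- to 1.39-fold with P4P6. The log2 difference with P4P6 was 0.21 (adjusted p = 0.315) and 0.26 without P4P6 replicate 0 (adjusted p = 0.284). A shift of this size in FPKM itself can be larger, since the added 1 is close to the level. The INT libraries differed by 0.31 on the log2 scale, more than 97.0% of tested features between the same libraries.

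The activator's own mRNA was measured at 14.8 and 14.6 FPKM in CasVP, in ranks 5690 and 5727. With sgRNA it was at 24.0 and 23.4 FPKM, and with INT at 25.6 and 25.9. TOP1 libraries held 16.1 and 17.1 FPKM, and P4P6 libraries 17.1 and 20.1. All 8 guide libraries lay above both CasVP libraries although every well received the same mass of activator plasmid, per the labels. Over the guides the mean stood 0.47 above CasVP on the log2 scale (exact permutation p = 0.0444, two-sided and unadjusted, over 45 splits, of which 0.0222 is the smallest p possible). Leaving out P4P6 replicate 0 gave 0.50 with the guides weighted equally and 0.51 as a mean over single libraries. Libraries of CasVP and all guides did not overlap for 4.82% of all features, and Gaussia and dCas9-VP64 were 2 of 3 construct transcripts without overlap. These 2 also passed with limma for all guides, as did 0.0173% of features. The dCas9-VP64 call for all guides (limma adjusted p = 0.0325) ended when any 1 of the 8 libraries outside P4P6 was left out (adjusted p up to 0.791), without a filter (0.216), without the trend (0.0992) and with equal summed FPKM (0.113). Taken singly, sgRNA (log2 difference 0.65, SE 0.07, limma adjusted p = 0.0153) and INT (0.77, SE 0.07, adjusted p = 0.00341) each had more of the transcript than CasVP. Each of these calls ended without either CasVP library and without either library of the guide. The one for sgRNA also ended without either INT library (adjusted p = 0.0771 and 0.0773). The 95% interval in FPKM + 1 was 1.01- to 1.25-fold for TOP1 (adjusted p = 0.533) and 1.12- to 1.39-fold for P4P6 (adjusted p = 0.075), which passed without P4P6 replicate 0 (log2 difference 0.42, adjusted p = 0.0167).

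The dCas9-VP64 mRNA lay at 23.4 to 25.9 FPKM in the sgRNA and INT libraries and at 16.1 to 20.1 in those of TOP1 and P4P6, a grouping made after the values were seen and not tested. P4P6 was lower than sgRNA (log2 difference -0.34, SE 0.07, limma adjusted p = 0.025), where 7.17% of all features were lower. With P4P6 replicate 0 left out it was -0.23 (adjusted p = 0.0315). The call ended without P4P6 replicate 1 (-0.45, adjusted p = 0.0564), without either sgRNA library, in a fit of P4P6 and sgRNA alone (adjusted p = 0.0945) and with equal summed FPKM (-0.19, adjusted p = 0.11). INT stood above TOP1 by 0.60 (SE 0.07, adjusted p = 0.0615), a difference that passed with a filter at a mean of 5 FPKM (adjusted p = 0.0473) and without P4P6 replicate 0 or P4P6 replicate 1. INT against P4P6 (0.45, SE 0.07, adjusted p = 0.383; 0.34 and 0.115 without P4P6 replicate 0) and TOP1 against P4P6 (-0.15, SE 0.07, adjusted p = 0.141) did not pass. TOP1 against sgRNA (-0.49, SE 0.07, adjusted p = 0.195) passed when either P4P6 library was left out (adjusted p = 0.0147 and 0.0153). Without P4P6 replicate 0, TOP1 against P4P6 passed (-0.26, adjusted p = 0.0161), and without P4P6 replicate 1 INT against P4P6 did (adjusted p = 0.0182). INT stood 0.11 above sgRNA on the log2 scale and did not pass (interval -0.04 to 0.27, adjusted p = 0.629).

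The order of the guides by activator mRNA (INT, sgRNA, P4P6, TOP1) was not their order by Gaussia mRNA (sgRNA, INT, TOP1, P4P6). INT and sgRNA differed by 1.09-fold in dCas9-VP64 while Gaussia with INT was 43.9% of that with sgRNA. Between the P4P6 libraries the 2 transcripts went opposite ways, with Gaussia at 189 and 163 FPKM and dCas9-VP64 at 17.1 and 20.1. Some steps of these orders did not pass with limma. For dCas9-VP64 they were INT against sgRNA (adjusted p = 0.629) and TOP1 against P4P6 (adjusted p = 0.141). For Gaussia it was INT against TOP1 (adjusted p = 0.275). Whether the level of activator mRNA bears on that of Gaussia was not tested.

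A ratio of 2 transcripts within a library does not depend on how libraries were scaled against each other. Gaussia to Cypridina is the RNA counterpart of a light assay in which one luciferase normalizes the other. This ratio was 17.1 and 19.7 in CasVP, 487 and 620 with sgRNA, 245 and 180 with INT, 225 and 270 with TOP1, and 122 and 94.8 with P4P6. All 8 guide libraries lay above both CasVP libraries. With guides the mean log2 ratio was 3.68 above CasVP (exact permutation test, two-sided, p = 0.0222 and 0.0333 adjusted over 3 ratios, where 45 splits allow no smaller p). This test too shuffles single libraries and not guides. Among the 4 guides the ratio differed (exact permutation p = 0.019 over 105 ways to pair the 8 guide libraries, adjusted p = 0.0286). That test was added after the values were seen and measures only how alike the 2 libraries of a guide are. Without P4P6 replicate 0 the difference from CasVP was 3.82. This is a mean over single libraries, in which P4P6 then counts for less than the other guides. The P4P6 library that remained had the lower ratio, so the larger difference is not a larger ratio with P4P6. INT and TOP1 overlapped by this measure, and TOP1 had the higher geometric mean, 247 against 210.

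Gaussia to dCas9-VP64 sets the reporter against the mRNA of the activator. CasVP libraries had a ratio of 1.61 and 1.56, sgRNA libraries 32.8 and 36.7, INT libraries 13.9 and 14.1, TOP1 libraries 16.0 and 15.9, and P4P6 libraries 11.02 and 8.10. Again all guide libraries lay above CasVP, by 3.38 on the log2 scale on average (exact permutation p = 0.0222, adjusted p = 0.0333). The 4 guides differed among themselves in the test added after the values were seen. Its exact permutation p was 0.00952, the smallest that 105 pairings allow (adjusted p = 0.0286). Without P4P6 replicate 0 the difference from CasVP was 3.46, again a mean over single libraries in which P4P6 counts for less. The P4P6 library that remained had the lower ratio, 8.10. By this measure both TOP1 libraries lay above both INT libraries, the reverse of their order in FPKM. The log2 gap between an INT and a TOP1 library was -0.20 to -0.17. An exact permutation test of 2 libraries against 2 allows no p under 0.33, and the turn in order was not tested in another way.

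**Figure D3:**
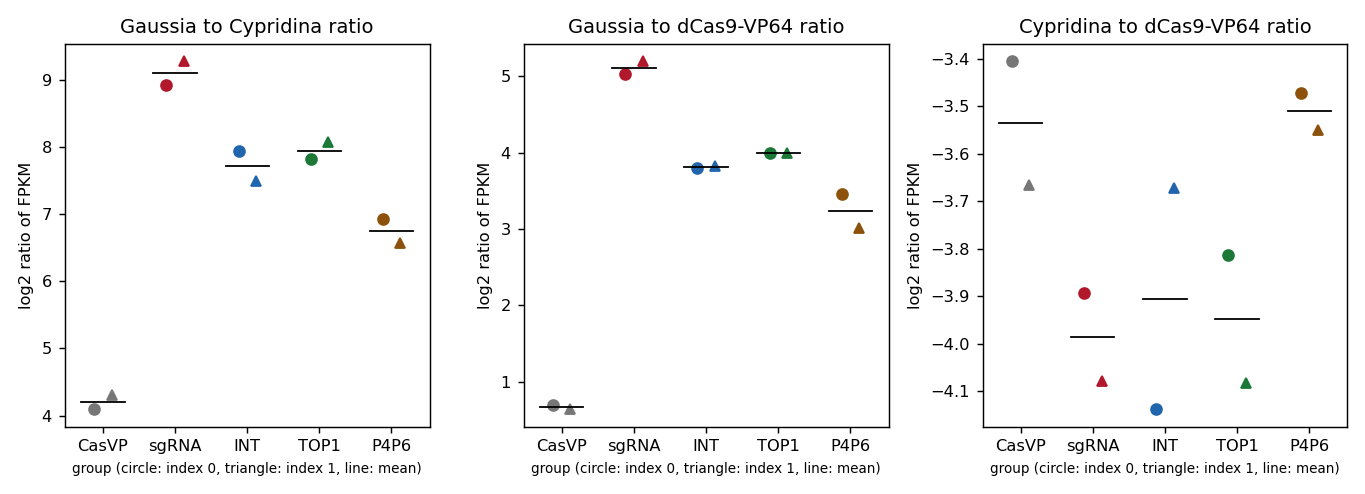
Log2 ratio of FPKM within each library for Gaussia to Cypridina, Gaussia to dCas9-VP64 and Cypridina to dCas9-VP64, by group, with circles for index 0, triangles for index 1 and a line at the mean. In the first 2 panels all guide libraries lie above CasVP, with sgRNA highest and P4P6 lowest among the guides, and in the third panel the groups overlap in part.

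In all 3 measures sgRNA stood highest and P4P6 lowest of the guides, with no overlap with the guides between them. Relative to sgRNA, INT stood at 43.9% in FPKM, 38.3% in the ratio to Cypridina and 40.5% in the ratio to dCas9-VP64. TOP1 stood at 32.2%, 44.9% and 46.1% by the same measures. For P4P6 the values were 21.4%, 19.6% and 27.3%. The place of INT against TOP1 thus depended on the measure, while the place of sgRNA and P4P6 did not. Between INT and TOP1 the difference in FPKM did not pass (limma adjusted p = 0.275), and those in the ratios were not tested. Cypridina, the divisor of the first ratio, was only at 1.01 to 2.03 FPKM in these libraries.

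**Figure D4:**
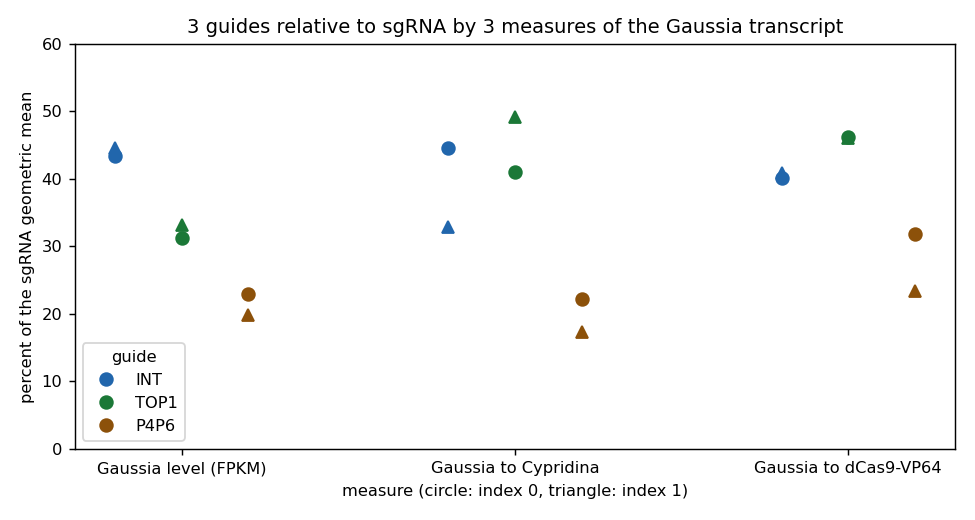
Gaussia level and its ratios to Cypridina and to dCas9-VP64 in each INT, TOP1 and P4P6 library, as a percent of the geometric mean of the sgRNA libraries. INT lies above TOP1 in FPKM, overlaps it in the ratio to Cypridina and lies below it in the ratio to dCas9-VP64, and P4P6 is lowest in all 3.

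Cypridina to dCas9-VP64, a ratio of 2 transcripts that no guide targets, was 0.0944 and 0.0788 in CasVP. It was 0.0673 and 0.0592 with sgRNA, 0.0568 and 0.0785 with INT, 0.0711 and 0.0590 with TOP1, and 0.0902 and 0.0854 with P4P6. It lay below both CasVP libraries in 6 of 8 guide libraries, the 2 others being those of P4P6. The mean log2 difference was -0.30 (exact permutation p = 0.156), and among the guides the exact permutation p was 0.257 over 105 pairings. With 1 CasVP library left out the difference was -0.17 (replicate 0) or -0.43 (replicate 1). Leaving out P4P6 replicate 0 gave -0.35, a mean over single libraries in which P4P6 counts for less.

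The gene lists here and below were chosen with earlier results of these data known, so their counts are descriptions. Genes for factors that VP16-type domains are known to contact or recruit were counted in the same fit, 18 of 19 listed genes. None passed for any guide against CasVP with limma, where 2, 2, 4 and 10 of 18 had an unadjusted p under 0.05 with sgRNA, INT, TOP1 and P4P6. With P4P6 replicate 0 left out, 2 of 18 passed in P4P6 against CasVP, beside 6.60% of all features, and with equal summed FPKM 5 of 18, beside 5.49%. The median log2 difference over all guides was 0.02, against 0.00 for all features. MED25, a Mediator subunit contacted by VP16, had 14.5 FPKM in CasVP (SD 1.18), 14.5 with sgRNA (SD 0.655), 15.9 with INT (SD 1.39), 14.1 with TOP1 (SD 0.713) and 19.2 with P4P6 (SD 1.07), where the difference from CasVP did not pass (limma adjusted p = 0.075). SMARCA2, a chromatin remodelling ATPase, had 8.13 in CasVP (SD 0.404) and 8.23 to 8.69 with guides. In P4P6 against sgRNA, 8 of 18 passed, 5 higher and 3 lower, where 4.33% of all features were higher and 7.17% lower. That background split moved with the scaling. Of all features called, 37.6% were higher with P4P6 as deposited, 76.8% after quantile normalization and 96.8% with equal summed FPKM. No called gene of the list turned direction under these scalings. The acetyltransferase genes CREBBP and EP300, the cofactor gene TRRAP, SMARCA4 and MED25 were higher with P4P6, by 0.23 to 0.38 on the log2 scale. GTF2B, which encodes TFIIB, SUB1 and TAF9B were lower (log2 differences -0.22, -0.22 and -0.28). Without P4P6 replicate 1 no gene of the list passed, in a fit where almost no feature did. Without P4P6 replicate 0 more of the list passed, as did more of all features. Quantile normalization left 5, beside 3.35% of all features, and equal summed FPKM 7, beside 25.2%. In TOP1 against P4P6, 10 of 18 passed, where 11.4% of all features were higher and 8.61% lower. Of all features called, 57.0% were higher with TOP1 as deposited, 35.1% after quantile normalization and 4.24% with equal summed FPKM. With TOP1, GTF2B, SUB1, TAF9 and TAF9B were higher and CREBBP, EP300, TRRAP, SMARCA4, MED25 and MED15 lower. The comparisons share the P4P6 libraries, and genes of the list still passed when either was left out. The count was 8 with quantile normalization, beside 10.2% of all features, and 8 with equal summed FPKM, beside 30.3%.

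Of 21 genes for the machinery that transcribes from a U6 promoter, the kind of promoter that drives the guides, none passed for any guide against CasVP with limma (0, 2, 1 and 8 at an unadjusted p under 0.05 with sgRNA, INT, TOP1 and P4P6). In P4P6 against CasVP, 1 of 21 passed with equal summed FPKM, beside 5.49% of all features. The count also rose without P4P6 replicate 0, as did that of all features. SNAPC2, a subunit gene of the complex that binds the U6 promoter, had 4.90 FPKM in CasVP (SD 0.134) and 5.26 to 5.91 with guides. ZNF143, a U6 activator gene, had 6.89 in CasVP (SD 0.289) and 6.02 to 6.41 with guides. With P4P6 against sgRNA, SNAPC4 was higher and the RNA polymerase III subunit gene POLR3K lower, 2 of 21, near the 11.5% of all features that passed. The count was 0 without P4P6 replicate 1 (0.0173% of all features) or with quantile normalization (3.35%), 5 without P4P6 replicate 0 (17.7%) and 4 with equal summed FPKM (25.2%). TOP1 against P4P6 gave 4 of 21, with SNAPC4 lower and POLR3K, POLR3B and POLR3C higher with TOP1, near the 20% of all features that passed. Leaving out P4P6 replicate 0 gave 7 of 21, beside 23.8% of all features.

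The 9124 other features with a mean of at least 5 FPKM were ranked by how closely log2(FPKM + 1) followed each construct transcript over the 10 libraries. These points share group structure, depth and the authors' scaling, and the ranking is a description. Closest to Gaussia were MOXD1 (Pearson's r = 0.91), the mitochondrial peptidase gene IMMP1L (0.89) and the calcium-binding protein gene SRI (0.88). Their log2 range over libraries was 0.26 to 0.42, against 5.18 for Gaussia. IMMP1L was at 15.7 FPKM in CasVP, 20.8 with sgRNA, 18.1 with INT and with TOP1 and 17.1 with P4P6. Closest to dCas9-VP64 were MTCH1 (0.91) and PPID (0.88), with ranges of 0.16 and 0.23 against 0.78. Closest to Cypridina were IPMK (0.93), TBC1D8B (0.90) and the exoribonuclease gene DIS3L2 (0.87), with ranges of 0.24 to 0.31 against 0.59. Each of these 8 genes had a smaller range than the transcript it was matched to. The gap was widest for Gaussia and narrowest for Cypridina, whose range is lowered by the added 1.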

How the data were processed

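The authors deposited FPKM values, with libraries as columns. TopHat2 2.0.13, Cuffdiff 2.2.1 and the build hg19 are named in the submitters' processing notes. How libraries were scaled and which annotation served are not given in the sources used here. Groups came from sample titles. Of 20246 features, 945 had no name and were left out. Without counts, the number of fragments behind each construct value is unknown.

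Values were transformed to log2(FPKM + 1), features with a mean of at least 1 FPKM over all libraries were kept, and 11 comparisons were fitted together in limma 3.58.1 (R 4.3.3) with an intensity trend and 5 residual degrees of freedom. Tests were two-sided, with p-values Benjamini-Hochberg adjusted over all features in a comparison and a threshold of 0.05. The code was tested on simulated data. Ratios were compared by exact permutation of libraries. For guides against CasVP these permutations take no account of the pairs of libraries that share a guide. The test among guides was added after the values were seen. Members and gene lists were chosen with earlier results of these data known. Named genes were the construct rows, list members called or with the 2 largest differences over all guides, and the 3 closest features per construct, of which 1 is not reported here. An older symbol in RefSeq matched 1 gene, TADA2A. The alternatives tried were another pseudocount, 2 other filters, 3 rescalings, a replicate block, no trend, smaller fits and leaving out each library.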

Additional observations from a re-analysis of the deposited data

Results flagged for a closer look

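The row of the guide sgRNA was listed at 109 FPKM in P4P6 replicate 0, a library labelled with another guide, while it was 0 in both CasVP libraries. It is the 1 value above 0 of any guide row in a library of a different guide. Gaussia was at 189 FPKM in this library and 163 in P4P6 replicate 1. The number of fragments behind the value of the guide row is unknown, and the same row was 0 in sgRNA replicate 1. The part of the guide row signal in the results was not tested, nor was whether the guide rows share sequence.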

How the results depend on the processing

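The Gaussia transcript kept its direction in all 11 comparisons under every alternative and kept its call when any library was left out. One call ended, TOP1 against P4P6 (0.59), with only the libraries of these groups. Results for dCas9-VP64 kept their direction, but their calls moved. The rise with sgRNA (0.65) and with all guides (0.47) lost its call without a filter and without the trend, and with equal summed FPKM (0.60 and 0.48). P4P6 against sgRNA lost its call with only those 2 groups (-0.34) and with equal summed FPKM (-0.19). Calls were gained for INT against TOP1 with a filter at 5 FPKM (0.60) and, with equal summed FPKM, for P4P6 against CasVP (0.41) and TOP1 against P4P6 (-0.30), where Cypridina gained one too (-0.43). Equal summed FPKM, chosen after seeing the data, moved the median over all features by up to 0.14. The count of all features called went from 1331 to 2919 in P4P6 against sgRNA and from 2318 to 3513 in TOP1 against P4P6, and quantile normalization gave 388 and 1182. In P4P6 against CasVP it went from 1 to 636 with equal summed FPKM, 7 with quantile normalization and 764 without P4P6 replicate 0. The cause was not tested. The filter at 5 FPKM leaves Cypridina out, and the fragments behind its low values are unknown.

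With 1 library left out, dCas9-VP64 differences from CasVP ranged from 0.63 to 0.67 with sgRNA, 0.76 to 0.78 with INT, 0.21 to 0.42 with P4P6 and 0.45 to 0.50 over all guides. Against sgRNA they were -0.53 to -0.45 with TOP1 and -0.45 to -0.23 with P4P6. INT against TOP1 gave 0.56 to 0.65, INT against P4P6 0.34 to 0.56 and TOP1 against P4P6 -0.26 to -0.044. The call for all guides changed in 8 of 10 such fits. Cypridina turned direction without INT replicate 1 in INT against sgRNA (-0.026 to 0.28) and INT against P4P6 (-0.10 to 0.21). The guide difference ranged from 3.48 to 3.87 for Gaussia to Cypridina and 3.21 to 3.52 for Gaussia to dCas9-VP64, and from -0.43 to -0.17 for Cypridina to dCas9-VP64. These ratio differences are means over single libraries, so a guide left with 1 library counts for less. With 1 CasVP library the smallest exact permutation p is 0.111, so these ratios cannot pass. A lone library is assumed to vary like the other groups.

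Correlations of deviations between groups by index were -0.04 to 0.42 over 10 pairs of groups (median 0.20). Not every one exceeded 0.1, so the index was not taken to pair the libraries, which does not show that they are unpaired. With a replicate block, 1 of the results for construct transcripts changed its call, dCas9-VP64 in P4P6 against CasVP (0.32, adjusted p = 0.0378). The count of features called in that comparison went from 1 to 600. In P4P6 against sgRNA it went from 1331 to 2326, with the U6 list from 2 to 5 of 21 (0 without a filter). In P4P6 against CasVP, 4 of 18 and 2 of 21 list genes passed with the block and 0 without it.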
